A study of Mus musculus with 14 samples.

Results

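DNA methylation is set and removed by a small group of nuclear proteins, and the RNA of 10 of them was measured here in mouse blastocysts made by somatic cell nuclear transfer (SCNT) or by in vitro fertilization (IVF). The members were Dnmt1, Dnmt3a, Dnmt3b and Dnmt3l, Uhrf1, Tet1, Tet2 and Tet3, Dppa3 and Zfp57, which is 10 of the 19513 genes named by a probe on the array. The rule took them by gene name. Together they had 16 probes, and 6 members had 1 probe only. The files listed Tet1, Tet2 and Tet3 under older names (Cxxc6, E130014J05Rik, and D230004J03Rik with B430006D22Rik), so these 3 members were matched through the synonyms and accessions of RefSeq.

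Amplified and Cy3-labelled RNA of 14 E4.0 blastocyst samples was read on 14 Agilent arrays of the whole mouse genome, 1 array per sample. The samples were 4 fusion clones and 4 injection clones, both female and made from cumulus cells, and 3 male and 3 female IVF-derived embryos. Fusion clones had been reconstructed by fusing a cumulus cell with an enucleated oocyte, and injection clones by injecting the cumulus nucleus. In the methods, oocytes came from BDF1 females (the cross of C57BL/6N and DBA/2), IVF embryos were BDF1, and nuclear donor cells carried a heterozygous Xist deletion on the BDF1 background. The labels do not give the Xist genotype of these blastocysts. Reconstructed oocytes had been activated with strontium chloride and kept in cytochalasin B, and all embryos were cultured in KSOM medium. The extraction protocol speaks of single embryos but describes parts of later embryos, so whether each blastocyst sample was 1 embryo is not settled, and a p-value here measures the spread between samples.

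In the blastocyst, the genome is at its lowest level of DNA methylation after fertilization, and new methylation is laid down as the embryo implants. Dnmt3a and Dnmt3b write new methylation, Dnmt3l stimulates them without being an enzyme itself, and Dnmt1 with its guide Uhrf1 copies existing methylation after replication. Tet1, Tet2 and Tet3 oxidize 5-methylcytosine, which is a path to its removal. Dppa3 and Zfp57 act as protectors in the early embryo: Dppa3 (Stella) shields the maternal genome from Tet3 and keeps Uhrf1 out of the oocyte nucleus, and Zfp57 binds methylated imprinting control regions with Trim28.

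The sequence just before the transcription start is shown for the 4 members that were called lower in at least 1 comparison of clones with female IVF embryos, because CpG sites in such windows are the substrate of the proteins themselves. The windows are from RefSeq (GRCm38.p6), are written 5′ to 3′ on the strand of the gene, hold no base of the gene, and have each CpG in capitals. The Dnmt1 window is on the minus strand at chr9:20959889-20960138, before the start listed farthest upstream.
Dnmt1: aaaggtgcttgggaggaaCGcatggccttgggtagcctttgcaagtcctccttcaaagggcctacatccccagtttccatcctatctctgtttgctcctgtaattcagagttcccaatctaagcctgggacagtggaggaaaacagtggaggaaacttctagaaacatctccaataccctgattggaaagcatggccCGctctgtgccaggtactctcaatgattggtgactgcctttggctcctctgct
The Dnmt3b window is on the plus strand at chr2:153649199-153649410.
Dnmt3b: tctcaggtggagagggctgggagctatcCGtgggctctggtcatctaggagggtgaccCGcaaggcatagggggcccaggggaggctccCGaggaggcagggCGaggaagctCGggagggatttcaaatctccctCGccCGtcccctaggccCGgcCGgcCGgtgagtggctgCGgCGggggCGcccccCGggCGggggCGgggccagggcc
The Uhrf1 window is on the plus strand at chr17:56303087-56303336, before the start listed farthest upstream.
Uhrf1: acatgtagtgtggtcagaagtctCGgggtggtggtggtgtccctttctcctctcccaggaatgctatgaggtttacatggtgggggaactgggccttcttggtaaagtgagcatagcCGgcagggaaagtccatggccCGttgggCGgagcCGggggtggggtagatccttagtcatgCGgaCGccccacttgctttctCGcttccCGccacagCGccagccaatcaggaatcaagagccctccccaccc
The Zfp57 window is on the plus strand at chr17:37000913-37001162, before the start listed farthest upstream.
Zfp57: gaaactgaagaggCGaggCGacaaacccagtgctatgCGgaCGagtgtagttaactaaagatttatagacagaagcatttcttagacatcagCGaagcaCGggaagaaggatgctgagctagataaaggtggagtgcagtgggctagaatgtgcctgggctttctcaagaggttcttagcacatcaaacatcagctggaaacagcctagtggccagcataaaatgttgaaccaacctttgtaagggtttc

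The motif counted was CG, which reads the same on both strands, in the 250 bases before each listed start. The table listed 18 starts for 9 members, and Dppa3 had no entry. The median over all 32851 starts in the table was 6. The Dnmt1 window above held 2 CpG, and 81.2% of all windows held at least as many, whereas another Dnmt1 start, at chr9:20952624-20952873, had 26, matched or passed by 9.6%. The Dnmt3b window of 250 bases had 21 CpG (matched or passed by 16.3%) and the Uhrf1 window 10 (37.8%), and the Zfp57 window had 6 (50.4%). Another Uhrf1 start, at chr17:56304063-56304312, had 30 (5.9%), and the other Zfp57 starts had 7 (46.3%) and 3 (71.0%). The most CpG-dense window of any member was that of Tet2, at chr3:133544391-133544640 on the minus strand, with 51 CpG, a number that 0.1% of all windows reached. Members called lower in clones therefore had both CpG-poor and CpG-rich starts among those listed. Which of its starts a gene used in these samples was not measured.

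Levels are given as log2 of the quantile-normalized processed intensity. They compare samples for 1 probe and never 1 probe with another, because probes differ in brightness for reasons other than the amount of RNA. On each array, 57.45% to 65.22% of gene spots were well above background. Of the markers of the blastocyst lineages, all 7 epiblast, 8 trophectoderm and 8 primitive endoderm genes with a probe passed the background mark in each of the 4 groups. Of 10 cumulus cell markers, 4 passed in fusion clones, 3 in injection clones, 8 in male IVF and 5 in female IVF embryos. In bulk RNA, fewer cells of a type and less RNA per cell cannot be told apart. Each group was on a slide of its own, and clones and IVF embryos were scanned on different instruments with different software versions, so slide and group cannot be told apart in any comparison below, nor scanner and group between clones and IVF embryos.

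**Figure D1:**
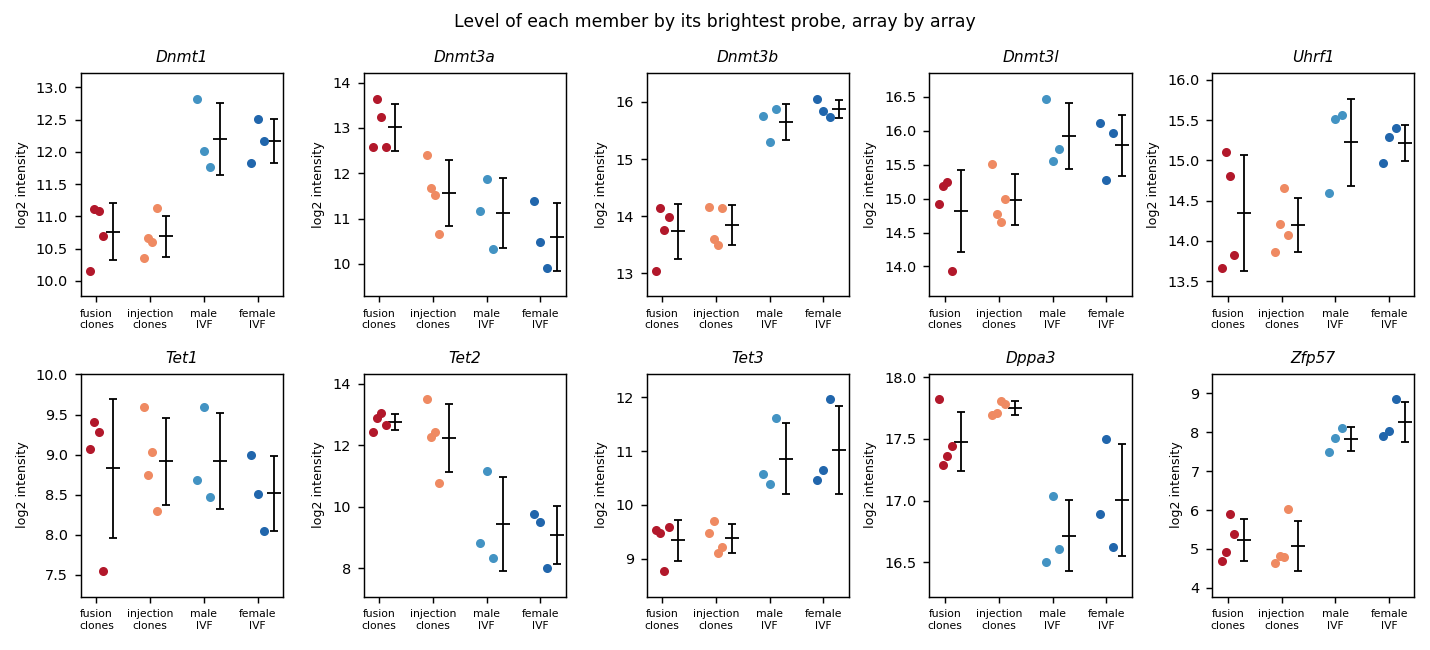
Log2 intensity of each of the 10 members by its brightest probe (y axis, a separate scale per panel) for both kinds of clone and both sexes of IVF-derived embryo (x axis). Points are arrays and the bar is the mean ± SD. For Dnmt1, Dnmt3b, Tet3 and Zfp57 all 8 clones lie below all 6 IVF embryos, with Zfp57 between 4.65 and 6.02 in clones and between 7.49 and 8.85 in IVF embryos. The share of all probes that separate in this way was not counted. Against female IVF embryos alone, 15.4% of all tested probes lay wholly lower in fusion clones and 12.5% in injection clones.

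The first question was how the members differed between clones and sex-matched female IVF embryos. In fusion clones, 2 of the 15 tested probes were called higher and 3 lower (limma, Benjamini-Hochberg adjusted p under 0.05). Over all tested probes of the array, 4.35% were called higher and 5.00% lower in that comparison. In injection clones, 0 were called higher and 4 lower, where 1.52% of all probes were called higher and 2.10% lower. The 16th probe, A_51_P199339 for Tet3, was not well above background on any of the 14 arrays and was not tested. The 2 comparisons share the 3 female IVF arrays, so they are not independent of each other. Dnmt1, Dnmt3b and Zfp57 were called lower in both, and Dnmt3a and Tet2, each by 1 of its probes, were called higher in fusion clones. The direct test of fusion against injection clones called neither. By the brightest probe of each gene, the median log2 difference of the 10 members was -0.92 in fusion clones and -0.91 in injection clones, beside -0.123 and -0.077 over all probes.

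The maintenance methyltransferase Dnmt1 was lower in clones. Its levels were 10.16, 11.11, 11.09 and 10.69 in fusion clones, 10.36, 10.67, 10.60 and 11.13 in injection clones and 11.83, 12.51 and 12.17 in female IVF embryos. No clone reached the lowest female IVF embryo, and the 3 male IVF embryos (12.82, 12.01 and 11.76) also lay above every clone. The difference was -1.40 ± 0.31 (SE; 4 against 3 arrays) on the log2 scale in fusion clones, which is 2.65-fold lower (limma adjusted p = 0.0396), and -1.48 ± 0.25 in injection clones, 2.79-fold lower (limma adjusted p = 0.041). The call was close to the threshold. In fusion clones it was lost without any 1 of the 7 arrays, with adjusted p from 0.0542 to 0.0918 and differences from -1.57 to -1.20, and in injection clones without injection clone 1, 2 or 3 or female IVF embryo 2 or 3, with adjusted p up to 0.101. It was also lost in both comparisons with the deposited log2 values (0.051 in fusion and 0.0671 in injection clones), with a floor of 1 (0.0537 and 0.0668) and with no filter on dim probes (0.0582 and 0.0555).

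Uhrf1, which brings Dnmt1 to newly replicated DNA, had 2 probes placed 103 bases apart. By A_51_P491742 its levels were 12.47, 13.99, 13.74 and 12.61 in fusion clones, 12.78, 13.11, 13.64 and 12.96 in injection clones, and 14.43, 14.28 and 14.35 in female IVF embryos. All clones lay below the female IVF embryos by this probe, but male IVF embryo 1 (13.95) lay below fusion clone 2. In injection clones the difference was -1.23 ± 0.23 (2.35-fold lower, limma adjusted p = 0.0458), a call that was lost without injection clone 1, 2 or 4 or any 1 of the female IVF embryos, with adjusted p up to 0.107. It was also lost with the deposited log2 values (0.0696), a floor of 1 (0.0799), no filter (0.0615) and all 4 groups in 1 fit (0.0546). In fusion clones the same probe differed by -1.15 ± 0.42 with an adjusted p of 0.143. The brighter probe, A_52_P314705, gave -0.87 ± 0.40 in fusion clones (adjusted p = 0.223) and -1.02 ± 0.23 in injection clones (adjusted p = 0.0667), so it passed in neither.

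Of the de novo enzymes, Dnmt3b was lower in both kinds of clone. Its levels were 13.05, 14.14, 13.76 and 13.98 in fusion clones and 14.16, 13.60, 13.50 and 14.14 in injection clones. They were 16.05, 15.84 and 15.74 in female IVF embryos and 15.76, 15.29 and 15.88 in male IVF embryos. The highest clone, at 14.16, was more than 1 log2 unit below the lowest IVF embryo, at 15.29. The difference from female IVF embryos was -2.14 ± 0.30 in fusion clones (4.42-fold lower, limma adjusted p = 0.0122) and -2.03 ± 0.23 in injection clones (4.08-fold lower, limma adjusted p = 0.0178). In fusion clones the call held without any 1 of the arrays (adjusted p 0.0126 to 0.0401), and in injection clones it was lost without injection clone 2 (0.0524) or 3 (0.0503).

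Dnmt3l, the partner of the de novo enzymes, did not pass in either comparison. It ranged from 13.94 to 15.24 in fusion clones, from 14.66 to 15.51 in injection clones and from 15.27 to 16.12 in female IVF embryos. The difference was -0.97 ± 0.39 (adjusted p = 0.174) in fusion clones, whose groups did not overlap, and -0.80 ± 0.30 (adjusted p = 0.183) in injection clones, whose groups did.

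Dnmt3a had 3 probes that gave different readings. By the brightest, A_52_P76146, levels were 12.58, 13.64, 13.24 and 12.59 in fusion clones, 12.41, 11.67, 11.51 and 10.65 in injection clones and 11.39, 10.48 and 9.92 in female IVF embryos. Every fusion clone lay above the highest female IVF embryo, and injection clones overlapped them. The difference was 2.42 ± 0.44 in fusion clones (5.34-fold higher, limma adjusted p = 0.025) and 0.97 ± 0.51 in injection clones (adjusted p = 0.318). The fusion call was lost without fusion clone 1, 2 or 3 or female IVF embryo 2 or 3, with adjusted p up to 0.0723. Probe A_52_P169048, which lies 1359 bases away, pointed the other way, with -0.93 ± 0.46 in fusion clones (adjusted p = 0.252) and -1.51 ± 0.53 in injection clones (adjusted p = 0.163). Without female IVF embryo 3 it passed in fusion clones as lower, at -1.49 (adjusted p = 0.0383). Probe A_52_P30497 gave -0.15 ± 0.55 and 0.11 ± 0.52.

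Among the Tet dioxygenases, Tet2 showed the largest difference of any member in fusion clones. By probe A_52_P502083 its levels were 12.43, 12.90, 13.04 and 12.66 in fusion clones, 13.50, 12.28, 12.42 and 10.79 in injection clones, and 9.76, 9.5 and 8.0 in female IVF embryos. All 8 clones lay above the 3 female IVF embryos, although male IVF embryo 2 (11.18) was above injection clone 4 (10.79). The difference was 3.67 ± 0.45 in fusion clones, 12.7-fold higher (limma adjusted p = 0.00869), and this call held without any 1 of the arrays. In injection clones it was 3.16 ± 0.73, 8.91-fold, with an adjusted p of 0.0687, and it passed without injection clone 4 (3.64, adjusted p = 0.0478). The other Tet2 probe, A_51_P340083, which lies 1801 bases away, gave 0.75 ± 0.30 in fusion clones (adjusted p = 0.17) and 1.04 ± 0.35 in injection clones (adjusted p = 0.148). Without female IVF embryo 2 it passed in fusion clones, at 1.09 (adjusted p = 0.0278).

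Tet3, the dioxygenase known from the zygote, was read by A_52_P173108 at 9.53, 9.48, 8.78 and 9.59 in fusion clones, 9.48, 9.70, 9.11 and 9.23 in injection clones and 10.46, 10.64 and 11.96 in female IVF embryos. All 8 clones lay below all IVF embryos, the lowest of which was at 10.39. The differences of -1.67 ± 0.42 and -1.64 ± 0.40 missed the threshold (limma adjusted p = 0.0559 in fusion and 0.0753 in injection clones). They passed where all 4 groups entered 1 fit (0.019 and 0.0256). A dimmer Tet3 probe, A_52_P491273, gave -0.46 ± 0.38 and -0.53 ± 0.24 and did not pass. Tet1 ranged from 7.55 to 9.60 over the clones and from 8.05 to 9.60 over the IVF embryos, with differences of 0.31 ± 0.51 (adjusted p = 0.703) and 0.40 ± 0.37 (adjusted p = 0.545).

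Of the protectors, Zfp57 was the member that was lower by most. Its levels were 4.68, 4.92, 5.90 and 5.38 in fusion clones, 4.65, 4.82, 4.80 and 6.02 in injection clones and 7.91, 8.03 and 8.85 in female IVF embryos. The highest clone was more than 1 log2 unit below the lowest IVF embryo of either sex. The difference was -3.04 ± 0.38 in fusion clones (8.25-fold lower, limma adjusted p = 0.00918) and -3.19 ± 0.42 in injection clones (9.14-fold lower, limma adjusted p = 0.0257). The fusion call held without any 1 of the arrays, and the injection call was lost without injection clone 1, 2 or 3 or female IVF embryo 3, with adjusted p up to 0.0754. The clone levels are near the floor of 16 intensity units (4 on the log2 scale), although the probe was well above background on all 14 arrays. Processed signals below 0 were present on the IVF arrays only (6790 to 9981 gene spots on each, against 0 on each clone array), so dim signals were handled differently in the 2 sets. Both Zfp57 calls held with a floor of 1 and with a floor of 32. Dppa3 ranged from 17.29 to 17.82 in clones and from 16.50 to 17.50 in IVF embryos. It differed from female IVF embryos by 0.47 ± 0.27 in fusion clones (adjusted p = 0.312) and by 0.74 ± 0.23 in injection clones (adjusted p = 0.121), and it passed in injection clones without female IVF embryo 2 (0.99, adjusted p = 0.0338).

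By all 16 probes, the groups did not overlap for 2 probes that were higher and 6 that were lower in fusion clones, where 10.5% of all tested probes were wholly higher and 15.4% wholly lower. In injection clones the counts were also 2 and 6, beside 8.41% and 12.5%. By the threshold of the methods (unadjusted p under 0.05 and a 2-fold change), 7 member probes passed in fusion clones and 9 in injection clones, beside 17.3% and 14.1% of all probes. The scale of the deposited log2 values moved the median difference of all probes by 0.167 in fusion and 0.148 in injection clones, from -0.123 to 0.044 and from -0.077 to 0.071. With it, 1557 probes were higher and 943 lower in fusion clones, against 1406 and 1616 before, and 391 and 225 in injection clones, against 498 and 688. Relative to the median of all probes, the called members differed by -1.28 (Dnmt1), -2.02 (Dnmt3b), -2.92 (Zfp57), 2.54 (Dnmt3a) and 3.79 (Tet2) in fusion clones. The values in injection clones were -1.40 (Dnmt1), -1.95 (Dnmt3b), -1.15 (Uhrf1) and -3.11 (Zfp57). Markers of the embryonic lineages were also compared with female IVF embryos. In fusion and injection clones the median log2 differences were -0.01 and -0.05 for trophectoderm and -0.21 and -0.2 for epiblast markers. Those of primitive endoderm markers, given below, were larger in size. The summed level of the 8 primitive endoderm markers was 175216 to 253136 intensity units in fusion clones, 148227 to 207018 in injection clones and 238088 to 310262 in female IVF embryos. Such sums weigh bright probes most, here Gata6 (0.23 and -0.10 in fusion and injection clones) and Dab2 (-0.71 and -0.77). The median log2 difference of the 8 genes was -1.89 in fusion and -2.76 in injection clones, larger in size than that of the members. The summed level of the 8 trophectoderm markers was 722122 to 936151, 648478 to 894010 and 889795 to 1041802, and that of the 7 epiblast markers was 100858 to 125152, 108850 to 150688 and 87830 to 108123. Of these markers, Zfp42 was called higher in injection clones (0.93, adjusted p = 0.0449) and Lama1 lower (-4.43, adjusted p = 0.0443), and Elf5 (-2.96, adjusted p = 0.0153) and Sox7 (-6.39, adjusted p = 0.0174) were called lower in fusion clones. The summed level of the 10 cumulus cell markers was 1054 to 2732 in fusion clones, 1637 to 2578 in injection clones and 869 to 1023 in female IVF embryos, and Has2, Tnfaip6, Ptx3, Amh, Inhba and Pgr were not well above background in either kind of clone. Amhr2, which made up most of that sum, was at 10.38 ± 0.65 (SD, n = 4) in fusion clones, 10.80 ± 0.34 (n = 4) in injection clones and 9.03 ± 0.92 (n = 3) in female IVF embryos (differences of 1.35 and 1.77, limma adjusted p = 0.163 and 0.084). The sum of 8 oocyte markers was 394 to 1497, 1301 to 1903 and 614 to 1173. The part of donor cells, oocyte RNA and lineage make-up in the members' differences was not tested.

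**Figure D2:**
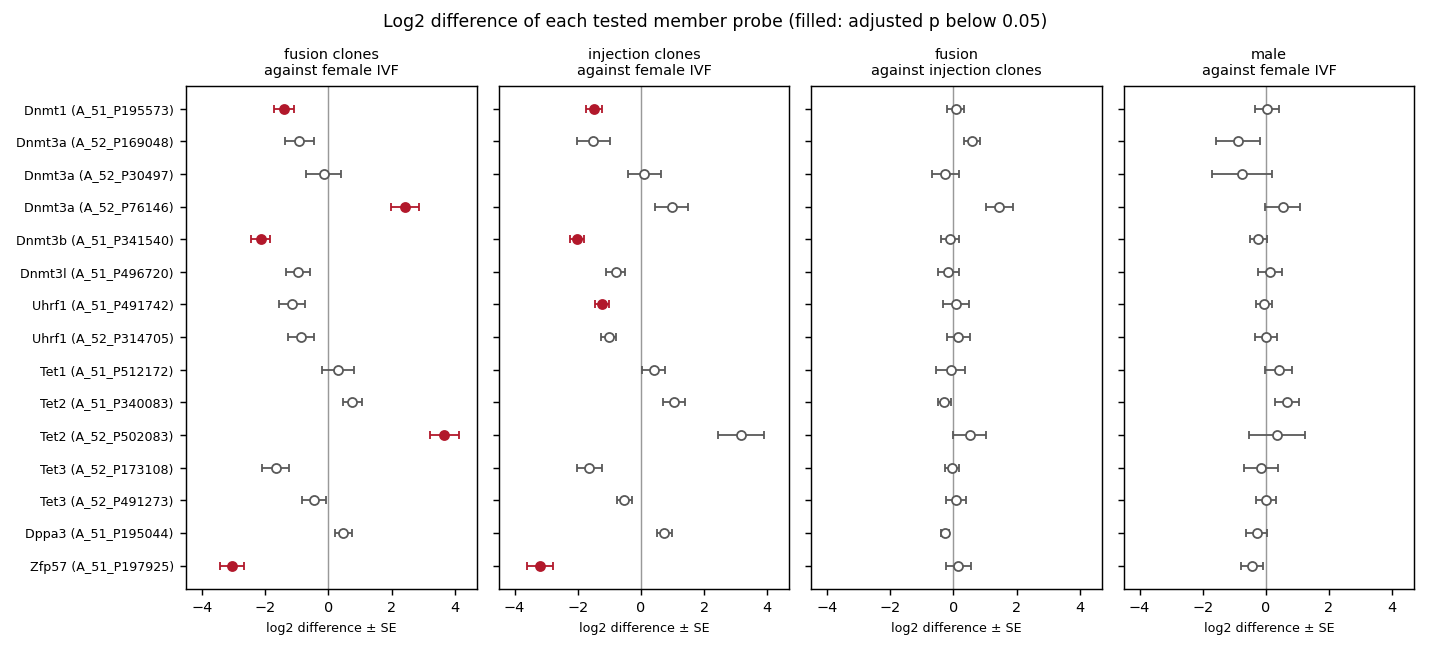
Log2 difference ± SE (x axis) of each of the 15 tested member probes (y axis) in the 4 comparisons, first group minus second. Filled red points had a limma adjusted p under 0.05, 5 of them in fusion and 4 in injection clones against female IVF-derived embryos and 0 in the other 2 panels.

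Since isoforms and 3′ ends can be read by different probes, the difference between 2 probes of 1 gene was compared between groups on each array. The size of such a difference has no meaning of its own, but its change between groups shows that the probes did not move alike. There were 6 pairs with both probes above background (3 for Dnmt3a and 1 each for Uhrf1, Tet2 and Tet3). With 4 against 3 arrays, the smallest two-sided p of the exact permutation test is 0.0571, so the 8 clones were also set against the 6 IVF embryos of both sexes, a comparison added after the data had been seen.

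For Tet2, A_52_P502083 minus A_51_P340083 was 2.21 ± 0.23 (SD, n = 4) in fusion clones, 1.41 ± 0.84 (n = 4) in injection clones, -1.02 ± 1.29 (n = 3) in male and -0.70 ± 1.05 (n = 3) in female IVF embryos. Every clone lay above every IVF embryo, but narrowly. The lowest clone, an injection clone, was at 0.51 and the highest IVF embryo, a female, at 0.45. The change was 2.67 on the log2 scale (exact permutation p = 0.000666, the smallest that 3003 splits allow, and 0.00399 adjusted over the 6 pairs). For Dnmt3a, A_52_P76146 minus A_52_P169048 was 2.39 ± 0.50 in fusion clones, 1.52 ± 1.22 in injection clones, 0.46 ± 1.64 in male and -0.96 ± 0.39 in female IVF embryos. The clones lay above the female but overlapped the male IVF embryos, and the change was 2.20 (exact permutation p = 0.00799, adjusted 0.016). The files list the second RefSeq transcript of Dnmt3a for A_52_P76146 and A_52_P30497, but not for A_52_P169048.

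For Tet3, A_52_P173108 minus A_52_P491273 was 4.37 in clones and 5.45 in IVF embryos, and those probes lie 39980 bases apart. The change was -1.08 (exact permutation p = 0.00133, adjusted 0.00399). Probe A_52_P491273 was near the floor of 4, with means of 5.03 in fusion clones, 4.96 in injection clones and 5.49 in IVF embryos of each sex. It had little room to fall in clones, so little can be read from the change. The Uhrf1 probes, 103 bases apart, differed in their change by 0.21 (exact permutation p = 0.0193, adjusted 0.0232). The other Dnmt3a pairs changed by 1.07 (A_52_P76146 minus A_52_P30497, exact permutation p = 0.192, and 1.72 with p = 0.0171 without male IVF embryo 2) and by -1.14 (A_52_P169048 minus A_52_P30497, exact permutation p = 0.0193, adjusted 0.0232). In the 4 against 3 comparisons of single clone groups with female IVF embryos no pair could pass. The smallest possible exact permutation p there is 0.0571, so nothing can be read from the outcome (smallest adjusted p 0.0685 in fusion and 0.0857 in injection clones).

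**Figure D3:**
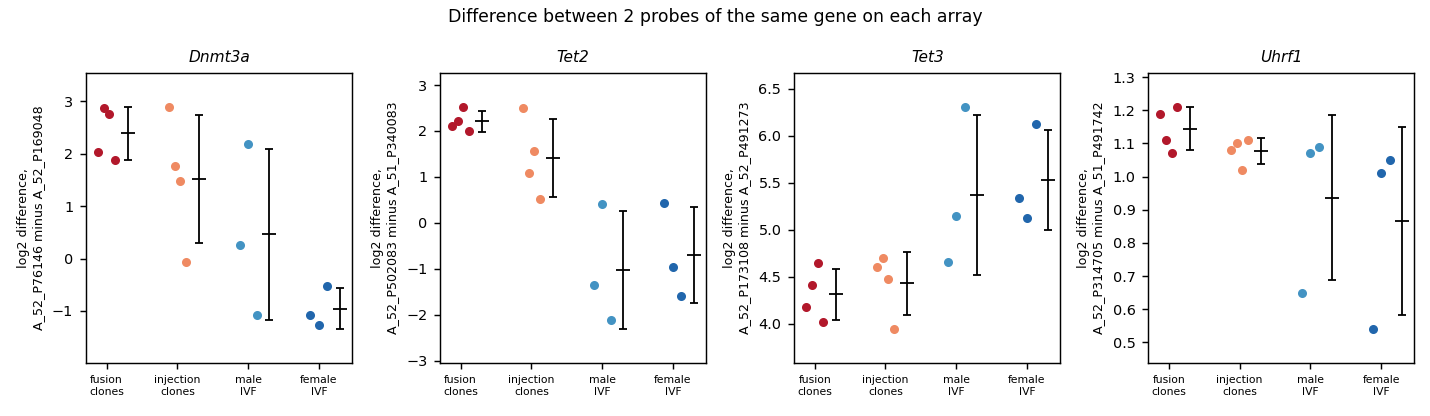
Difference on the log2 scale between 2 probes of the same gene on each array (y axis) for Dnmt3a, Tet2, Tet3 and Uhrf1 in the 4 groups (x axis). Points are arrays and the bar is the mean ± SD. Only shifts between groups are read: for Tet2 all 8 clones lie above all 6 IVF-derived embryos, narrowly (lowest clone 0.51, highest IVF-derived embryo 0.45).

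The next question, whether the route of nuclear transfer mattered, compared fusion with injection clones. None of the 15 member probes was called, as was 0% of all 32165 probes (limma, smallest adjusted p 0.255, with 1968 probes at an unadjusted p under 0.05; the deposited log2 values called 2 higher and 0 lower). The member that differed most was Dnmt3a by A_52_P76146, at 13.01 ± 0.52 (SD, n = 4) in fusion and 11.56 ± 0.72 (n = 4) in injection clones. All fusion clones lay above all injection clones, and the difference was 1.45 ± 0.42 with a limma adjusted p of 0.688. This was the 1 member probe that passed the threshold of the methods, which 2.43% of all probes passed. Of the remaining member probes, A_52_P169048 for Dnmt3a differed most (0.58 ± 0.25, adjusted p = 0.818). Differences of Dnmt1 (0.07 ± 0.26), Dnmt3b (-0.12 ± 0.28), Tet3 (-0.04 ± 0.23, brighter probe) and Zfp57 (0.15 ± 0.39) were each smaller than their standard error.

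Male against female IVF embryos gave the difference of the members between the sexes of control embryos, which cannot be told apart from slide. None of the 15 member probes was called, where 0.0594% of all probes (19 of 31986) were. With the replicate number as a block, 0 of all probes were called. With the scale set by the 75th percentile, 14 probes were higher and 10 lower, against 9 and 10 before. By the threshold of the methods 0 member probes passed, beside 5.86% of all. The largest difference was that of Dnmt3a by A_52_P169048, at -0.89 ± 0.69 (adjusted p = 0.725). Dnmt1 differed by 0.03 ± 0.37, Dnmt3b by -0.24 ± 0.26 and Zfp57 by -0.44 ± 0.35, and the groups of 3 overlapped for every member probe. The female embryos were taken as control for the clones, and male group means lay within 1 log2 unit of the female means for all 15 probes. Single embryos lay farther off. Male IVF embryo 2 was at 6.88 for Dnmt3a by A_52_P30497, where female embryos lay between 8.52 and 10.37. By A_52_P502083 for Tet2 the same embryo was at 11.18, and female embryos lay between 8.0 and 9.76.

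Across the 14 arrays, after the group means had been taken out, the brightest probes of Dnmt3a and Tet2 had the most similar deviations of any 2 members (Pearson r = 0.88), and Dnmt3a with Tet3, Dnmt3a with Zfp57 and Tet2 with Tet3 the most opposed, at -0.54 each. These values describe 14 arrays that share slides within groups, and are given with no test. Among named genes well above background on all arrays, the most alike in pattern was Dlgap3 for Dnmt3a (r = 0.953), Usp34 for Tet2 (0.961), P4ha2 for Dnmt3l (0.951), Phospho2 for Tet3 (0.932) and Gpbp1l1 for Dppa3 (0.926). For Dnmt1 it was Pycrl (0.918), for Dnmt3b Tmprss2 (0.911), for Tet1 Mdk (0.909), for Uhrf1 Tceanc (0.893) and for Zfp57 Gpatch11 (0.884). Each was the highest of 15740 to 15742 probes.

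Other genes of the pathway were read by the brightest probe of each. None of 7 tested methylation readers, 14 genes of base excision repair and deamination or 19 partners and cofactors was called in fusion clones, and none of 8, 14 and 20 in injection clones. Their median differences in fusion clones were 0.10, -0.11 and -0.13. Those in injection clones were -0.15, 0.03 and -0.23. Those with the smallest p in fusion clones were Zbtb33, a reader also called Kaiso, at 0.77 ± 0.33 (adjusted p = 0.197), Parp1, a sensor of DNA breaks, at -0.53 ± 0.15 (adjusted p = 0.0808), and Cxxc1, a CpG-binding protein, at -0.94 ± 0.24 (adjusted p = 0.055). Among the partners in injection clones it was Trim28, the co-repressor that Zfp57 recruits, at -1.19 ± 0.24 (adjusted p = 0.0539). Of 15 tested genes of methyl donor supply, none was called in fusion clones and 1 was lower in injection clones, with medians of -0.57 and -0.65. It was Mthfd1, an enzyme of the folate cycle, at 15.15, 15.49, 15.34 and 15.37 in injection clones and 15.99, 16.17 and 16.11 in female IVF embryos (-0.75 ± 0.14, limma adjusted p = 0.0471).

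Germline genes that DNA methylation keeps silent in somatic cells split in direction. Of 14 tested, 3 were called higher and 3 lower in fusion clones, and 1 higher and 1 lower in injection clones, with median differences of -0.66 and 0.13. Asz1, a germ cell protein of the piRNA pathway, was at the floor and not well above background in all 8 clones, and lay between 9.88 and 11.22 in the 6 IVF embryos, at least 101-fold lower in fusion and at least 109-fold lower in injection clones (limma adjusted p = 8.41e-05 and 0.000187). Tdrd1, a tudor protein of the same pathway, ran the other way. It was 10.66, 7.93, 9.01 and 6.96 in fusion clones and 10.01, 8.83, 7.63 and 7.90 in injection clones, and not well above background in any female IVF embryo, at least 24.9-fold and at least 24.1-fold higher (limma adjusted p = 0.0242 and 0.0239). Male IVF embryo 3 was at 7.61, above fusion clone 4, so clones and IVF embryos of both sexes overlapped. Mael, also of the piRNA pathway, was 4.27 ± 0.77 log2 units lower in fusion clones, at 8.07, 10.08, 10.62 and 11.50 against 14.64, 14 and 14.37 (limma adjusted p = 0.0255). Injection clones, at 5.61, 10.79, 10.62 and 12.68, differed by -4.41 ± 1.61 without a call (limma adjusted p = 0.176). All 8 clones lay below all 6 IVF embryos for Mael. In fusion against injection clones and in male against female IVF embryos no gene of these 5 lists was called.

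**Figure D4:**
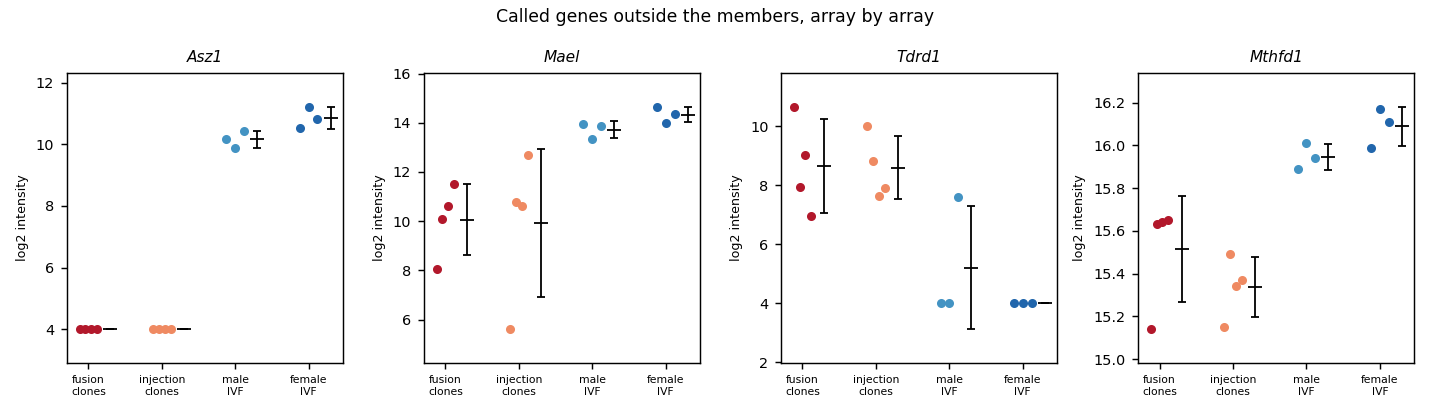
Log2 intensity (y axis) of Asz1, Mael, Tdrd1 and Mthfd1 in the 4 groups (x axis). Points are arrays and the bar is the mean ± SD, with values of 4 at the floor. All 8 clones lie at the floor for Asz1, and all 3 female IVF-derived embryos for Tdrd1.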

How the data were processed

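The authors scanned 1-color Agilent 4x44K arrays and deposited, per the file headers, linear intensities of each spot from Feature Extraction (10.5.1.1 for clones, 9.5.3.1 for IVF embryos; the submitters' processing notes name 10.5.1). The intensities were background-subtracted but not normalized between arrays, and only those of IVF embryos held values below 0. Their second deposited file holds log2 values, shifted per array and centred per probe (column medians -0.224 to 0.16), and served as an alternative.

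Processed signals of 43379 gene spots per array were used and control spots (1639) left out. Outlier spots (101 to 338 per array) were set to missing. Signals were quantile-normalized, following the methods, floored at 16, put on the log2 scale and averaged where a probe had several spots. Probes that passed the scanner software's background mark in 1 or more samples of the groups compared were tested. Groups came from the labels. Each comparison was fitted with limma 3.58.1 (lmFit, eBayes; R 4.3.3) with Benjamini-Hochberg adjustment over all tested probes, and the script was tested on simulated data. Differences between 2 probes of 1 gene used an exact two-sided permutation test (Python 3.11.15). The number of arrays limits the precision.

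The gene was named through RefSeq symbols, synonyms and accessions for 32724 of 41174 probes (79.5%); the rule's older names alone would have missed Tet2 and Tet3. All members were named by every probe, with the brightest as the reading of the gene. In each pathway list up to 3 called genes with the largest difference were named, or else the gene with the smallest p. The members and lists were chosen with earlier results of these data known. Male and female IVF embryos with the same number had correlations of their deviations over probes of 0.109, 0.129 and 0.11. Fusion clone 3 with injection clone 3 reached 0.108. The labels give replicate numbers but name no pairs, so a block by number was used only as an alternative. Alternatives were another scaling, background correction, floor, filter, fit, threshold, averaging of probes, a replicate block and leaving out each array. 1 gene that this rule names is not reported here.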

Additional observations from a re-analysis of the deposited data

Results flagged for a closer look

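In the 2 clone groups of 4, each member probe above background was checked for a sample far from the other 3, which gave 30 groups. Chance alone marks about 1 in 20 such groups, or 1.5 here, and 2 were marked. Tet3 by A_52_P173108 was 8.78 in fusion clone 3, and between 9.48 and 9.59 in the other 3 fusion clones. Zfp57 was 6.02 in injection clone 4, and between 4.65 and 4.82 in the other 3 injection clones.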

How the results depend on the processing

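Of 1020 values of single member probes under the alternatives, 959 stayed on the same side of the threshold, 48 lost and 13 gained a call, and 0 reversed a called direction. Of the 959, 60 changed sign and were called on neither side. The replicate block treats equal replicate numbers as pairs, which the labels do not state. In fusion and injection clones against female IVF embryos it left 0 called member probes, 0 germline genes and 0 methyl donor genes. Without it there were 5 and 4 probes, 6 and 2 germline genes, and 1 methyl donor gene. The correlations of same-numbered arrays were -0.072 to 0.057 for clones with female embryos and -0.058 to 0.108 for fusion with injection clones.

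Member probes called in injection clones numbered 2 with the authors' log2 table, 2 where the floor was 1, 2 with no filter and 9 by the threshold of the methods. By the brightest probe, the 3 genes became 5 with the stricter filter (well above background on every array of a group), 5 with all 4 groups in 1 fit and 6 by the methods' threshold. That threshold gave 1 member (Dnmt3a) in fusion against injection clones. The calls over all probes in injection clones moved in the same directions. They were 498 higher and 688 lower in the main fit. They were 391 and 225 with the authors' log2 table, 299 and 300 with a floor of 1, and 296 and 478 with no filter. With the stricter filter they were 861 and 1062 (of 23090 tested), and 1360 and 1734 in 1 fit. Without 1 array, called member probes ranged from 3 to 4 in fusion (3 to 4 by gene) and from 0 to 4 in injection clones (0 to 4 by gene).

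In fusion clones, repair genes numbered 1 (75th percentile shift, floor of 32, no filter, variance trend, probes averaged) or 2 (methods' threshold), and partners 2 (75th percentile shift, stricter filter, variance trend) or 1 (normexp, floor of 32, 1 fit). Methyl donor genes numbered 2 (normexp, variance trend), 1 (floor of 32, no filter, stricter filter) or 3 (1 fit, methods' threshold). In injection clones, readers numbered 1 (normexp, stricter filter, methods' threshold), repair genes 1 (methods' threshold) and partners 1 (normexp, stricter filter, 1 fit, variance trend, methods' threshold). There, methyl donor genes numbered 0 (deposited values, floor of 1, probes averaged), 2 (floor of 32, methods' threshold) or 3 (1 fit), and germline genes 4 (stricter filter, 1 fit) or 6 (methods' threshold). In male against female embryos the methods' threshold gave 1 repair and 1 germline gene. Without 1 array, the ranges were 0 to 1 for repair, partner and methyl donor genes and 2 to 4 for germline genes in fusion clones, 0 to 2 for methyl donor and 1 to 2 for germline genes in injection clones, and 0 to 1 for germline genes in male against female embryos. The cause of these shifts was not tested.

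Over all probes, 3022 were called in fusion clones (2493 to 4340 under other settings, 1307 to 3108 without 1 array), 1186 in injection clones (599 to 3094, and 143 to 1359), 0 between clones (0 to 11, and 0 to 2) and 19 between the sexes (3 to 206, and 1 to 38). The block gave 0 in all 4. Groups of 3 and 4 arrays and dim signals such as that of Zfp57 in clones limit what can be called.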
